A study of Mus musculus with 42 samples.

Results

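The lysosomal membrane proteins and transporters examined here were the 10 genes Lamp1, Lamp2, Cd63, Cd68, Scarb2, Mcoln1, Ctns, Slc17a5, Laptm4a and Laptm4b, chosen by gene name from the 54532 genes of each deposited table. Their RNA was measured by poly-A sequencing of 42 whole mouse kidneys in 14 groups of 3. In the Cagg cohort, at postnatal day 30, the CaggCreERT2 transgene acts in the whole body once tamoxifen is given, and pups received tamoxifen through lactation. Its groups were Cagg control (CaggCreERT2+; Tsc2+/+, also exposed to tamoxifen), Cagg Tsc2 KO (Tsc2 fl/fl), Cagg Tfeb KO (Tfeb fl/fl) and Cagg DKO (Tsc2 fl/fl; Tfeb fl/fl). In the KSP cohort, at postnatal day 50, KspCre is driven by the cadherin 16 promoter in kidney epithelium, so the other cells of the kidney keep both genes, and the controls carry no Cre. Its 4 groups were KSP control, KSP Tsc2 KO, KSP Tfeb KO and KSP DKO. A second KSP cohort of 6 groups, also at postnatal day 50, held control, Tsc2 KO and DKO mice, each given vehicle or rapamycin at 1 mg/kg by intraperitoneal injection, 3 times per week and 11 injections in all, from postnatal day 25.

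Tsc2 encodes tuberin, a part of the complex that restrains the kinase mTORC1, and rapamycin inhibits mTORC1. TFEB is a basic helix-loop-helix transcription factor that mTORC1 phosphorylates, and it binds E-box sequences of the kind found in the promoters of many lysosomal genes. The proteins studied here sit in the limiting membrane of the lysosome. Some are structural glycoproteins that shield the membrane, some sort enzymes or cargo, and some carry ions or the products of digestion out of the lumen.

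The libraries held 14926050 to 22807605 counts on genes. Tsc2, the targeted gene, was at 3.54 to 6.50 FPKM in every Tsc2 KO and DKO library (rapamycin groups included) and at 6.86 to 10.6 FPKM in every library of the other groups. Without rapamycin it did not overlap between DKO and Tsc2 KO. It read 4.82 to 5.64 against 4.06 to 4.55 FPKM in Cagg and 5.17 to 5.81 against 3.54 to 4.37 FPKM in KSP. In the vehicle groups it read 5.53 to 6.41 against 3.80 to 4.47 FPKM. KSP Tsc2 KO rapamycin, at 5.06 to 6.50 FPKM, also lay above KSP Tsc2 KO vehicle. The part of these Tsc2 levels in the comparisons was not tested. FPKM are fragments per kilobase of gene, scaled to library size, so levels of different genes can be compared. Tfeb was at 2.73 to 3.73 FPKM in Cagg Tfeb KO and 4.57 to 8.02 FPKM in Cagg control, but at 4.32 to 5.25 FPKM in KSP Tfeb KO against 5.85 to 6.24 FPKM in KSP control. In KSP DKO it read 2.65 to 4.09 FPKM, overlapping the 3.66 to 6.12 FPKM of KSP Tsc2 KO. It did not overlap between Cagg DKO (1.99 to 3.48 FPKM) and Cagg Tsc2 KO (6.98 to 8.33 FPKM), nor between KSP DKO vehicle (2.57 to 3.18 FPKM) and KSP Tsc2 KO vehicle (5.58 to 6.09 FPKM). By Xist and Y-linked counts, all 3 Cagg control libraries were male and all 3 Cagg Tfeb KO libraries female, Cagg Tsc2 KO held 1 male and Cagg DKO 2 males, and every KSP library was female (Lamp2 is X-linked). For 4 libraries of the Cagg cohort the columns of both tables carry conflicting names, of which 2 change genotype (a Tfeb KO and a DKO library). The names of the FPKM table are used, under which Tsc2 does not overlap between Cagg Tfeb KO (9.05 to 10.2 FPKM) and Cagg DKO (4.82 to 5.64 FPKM). The count table's names would place a library with Tsc2 at 10.2 FPKM in Cagg DKO and a library with Tsc2 at 5.26 FPKM in Cagg Tfeb KO. Under those names each of these groups would mix Tsc2 levels of both genotypes. Members whose call or direction changes under the other names are named beside the result. Library KSP DKO 1 stood apart, with a summed macrophage marker level of 828.5 FPKM against 79.2 and 110.6 FPKM in its group. T cell markers (6 genes) also ran widely in KSP DKO, from 2.76 to 45.7 FPKM with a median of 2.97 FPKM. Adrenal cortex markers (5 genes) summed to 4259 FPKM in KSP DKO vehicle 2 and to 1323 FPKM in KSP Tsc2 KO vehicle 1. They summed to 302.5 FPKM in KSP DKO vehicle 1, to 50.8 FPKM in KSP Tsc2 KO vehicle 2, to 271 FPKM in Cagg Tfeb KO 1 and to 33.3 FPKM in Cagg Tfeb KO 2, and to at most 2.33 FPKM in every other library.

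The promoters of the members differ in their E-boxes. RefSeq windows of 300 bases (250 before to 50 after a start site, build GRCm38.p6) were found for 9 of the 10 genes, all but Laptm4b, with a pair of windows for Ctns. The hexamer CACGTG, which reads the same on both strands, stood in 2 of the 10 member windows and in 7.15% of all 32851 windows of this length. The window of Lamp1 held 4 copies, with first bases at -61, -45, -28 and -15 from the start site, and 8 of all the windows (0.0244%) held 4 or more. The window of Mcoln1 held 2 copies, at -71 and -45, and 0.594% of all windows held 2 or more. The longer form TCACGTG, searched on both strands and overlapping the hexamer, stood in the same 2 member windows and in 3.77% of all windows. The 10-letter CLEAR palindrome of lysosomal genes, which contains both, stood in none of the member windows and in 0.326% of all windows. These 3 windows are shown because Lamp1 and Mcoln1 hold the hexamer (in capitals) and Cd68, whose level changed most between groups, does not. They lie at chr8:13158911-13159210 (plus strand, Lamp1), chr8:3500269-3500568 (plus strand, Mcoln1) and chr11:69666121-69666420 (minus strand, Cd68), and each is written 5′ to 3′ on the strand of its gene.
Lamp1: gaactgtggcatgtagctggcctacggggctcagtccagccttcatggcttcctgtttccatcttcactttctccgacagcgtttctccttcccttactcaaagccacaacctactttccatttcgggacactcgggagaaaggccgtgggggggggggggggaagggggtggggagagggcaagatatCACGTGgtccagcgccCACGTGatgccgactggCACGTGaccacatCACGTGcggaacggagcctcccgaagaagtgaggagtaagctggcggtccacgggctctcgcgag
Mcoln1: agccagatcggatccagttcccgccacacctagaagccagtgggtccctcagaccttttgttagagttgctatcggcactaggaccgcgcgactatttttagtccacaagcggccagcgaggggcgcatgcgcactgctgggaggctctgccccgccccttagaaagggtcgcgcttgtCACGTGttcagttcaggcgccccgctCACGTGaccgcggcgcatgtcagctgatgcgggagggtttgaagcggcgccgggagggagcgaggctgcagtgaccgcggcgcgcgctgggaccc
Cd68: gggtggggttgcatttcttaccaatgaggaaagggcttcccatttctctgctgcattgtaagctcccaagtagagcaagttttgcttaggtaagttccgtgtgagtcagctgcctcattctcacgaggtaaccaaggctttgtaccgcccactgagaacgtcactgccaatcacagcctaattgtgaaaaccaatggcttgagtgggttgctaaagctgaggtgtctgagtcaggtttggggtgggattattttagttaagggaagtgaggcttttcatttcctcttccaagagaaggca
The hexamer was also absent from the windows of Lamp2, Cd63, Scarb2, Ctns, Slc17a5 and Laptm4a. The start site of the Cd63 window lies 8356 bases inside the gene as the deposited tables place it, that of Scarb2 1176 bases inside and that of Laptm4a 357 bases upstream, so these 3 windows may not be the promoters the kidney uses. That of Mcoln1 lies 62 bases inside, so its copy at -45 falls within the gene as placed there. A match is a description of the sequence, and binding was not measured here.

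**Figure D1:**
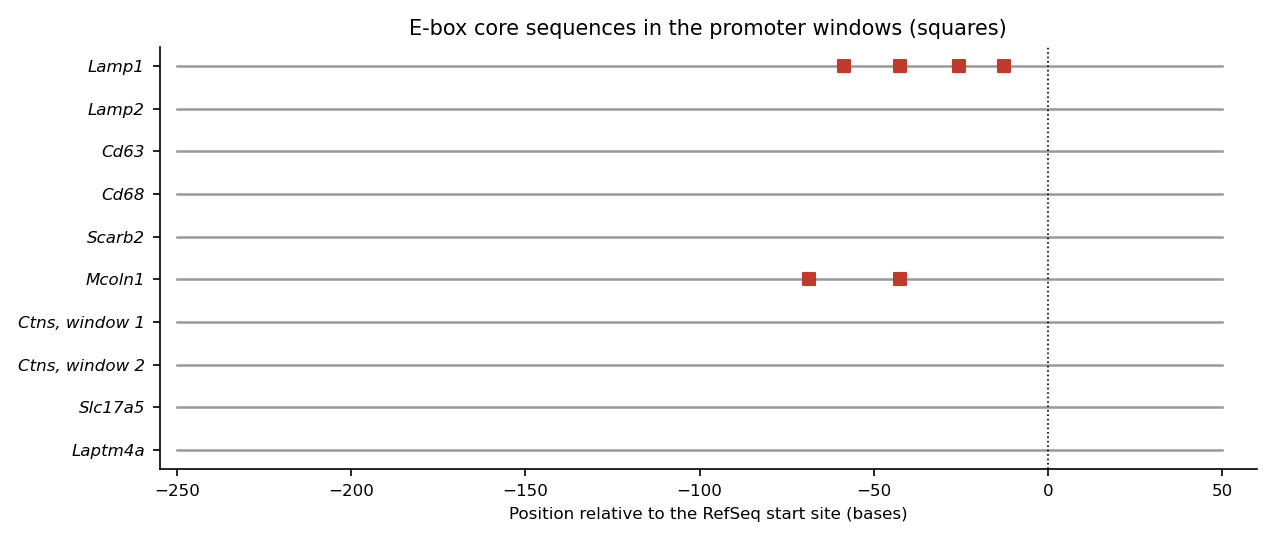
Positions of the hexamer E-box (red squares) in the 10 promoter windows of 9 members, in bases relative to the RefSeq start site (dotted line). Lamp1 holds 4 copies and Mcoln1 holds 2, all upstream of the start site, and the other windows hold none.

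The members spanned a wide range of abundance, and Lamp1, Cd63, Laptm4a and Lamp2 were the 4 most abundant in every group. Lamp1, a heavily glycosylated coat protein of the lysosome (ENSMUSG00000031447, mm10 chr8:13159161-13175338), was the most abundant in every group, with group means from 388 FPKM in KSP Tfeb KO to 724 FPKM in Cagg DKO. Cd63, a tetraspanin of late endosomes and lysosomes (chr10:128900989-128912822), ranged from 198 FPKM in KSP DKO to 407 FPKM in Cagg Tsc2 KO. Laptm4a, a multi-pass protein that sorts cargo to the lysosome (chr12:8921664-8938742), was the steadiest member, with group means from 173 to 237 FPKM and a median coefficient of variation within groups of 4.67%. Lamp2, the partner of Lamp1 and a gene of the X chromosome (chrX:38401357-38456454), ranged from 70.9 FPKM in Cagg Tfeb KO to 118 FPKM in Cagg DKO.

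Laptm4b, the paralog of Laptm4a (chr15:34238028-34284302), had group means from 35.1 to 60.9 FPKM. The transporter genes were lower. Slc17a5, which encodes the sialic acid exporter sialin (chr9:78536488-78588041), ranged from 18.5 to 38.2 FPKM. Ctns, the cystine exporter lost in cystinosis (chr11:73183596-73199042), ranged from 8.67 to 16.7 FPKM, and Mcoln1, the lysosomal cation channel TRPML1 (chr8:3500457-3515232), from 6.33 to 11.9 FPKM. Scarb2, the receptor LIMP-2 that carries glucocerebrosidase to the lysosome (chr5:92441314-92506833), ranged from 7.91 to 16.3 FPKM. Cd68, a LAMP family glycoprotein used as a marker of macrophages (chr11:69664213-69666153), was the least abundant member in every group that keeps Tsc2 and the most variable, from 1.44 FPKM in KSP control rapamycin to 18.6 FPKM in Cagg Tsc2 KO. Its highest group mean was 12.9 times its lowest, against 1.37 to 2.07 times for the other members. The 3 cohorts were normalized separately, so levels are set side by side across them but not tested. The libraries do not keep strand, so reads of genes that overlap on the other strand are counted with the members.

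**Figure D2:**
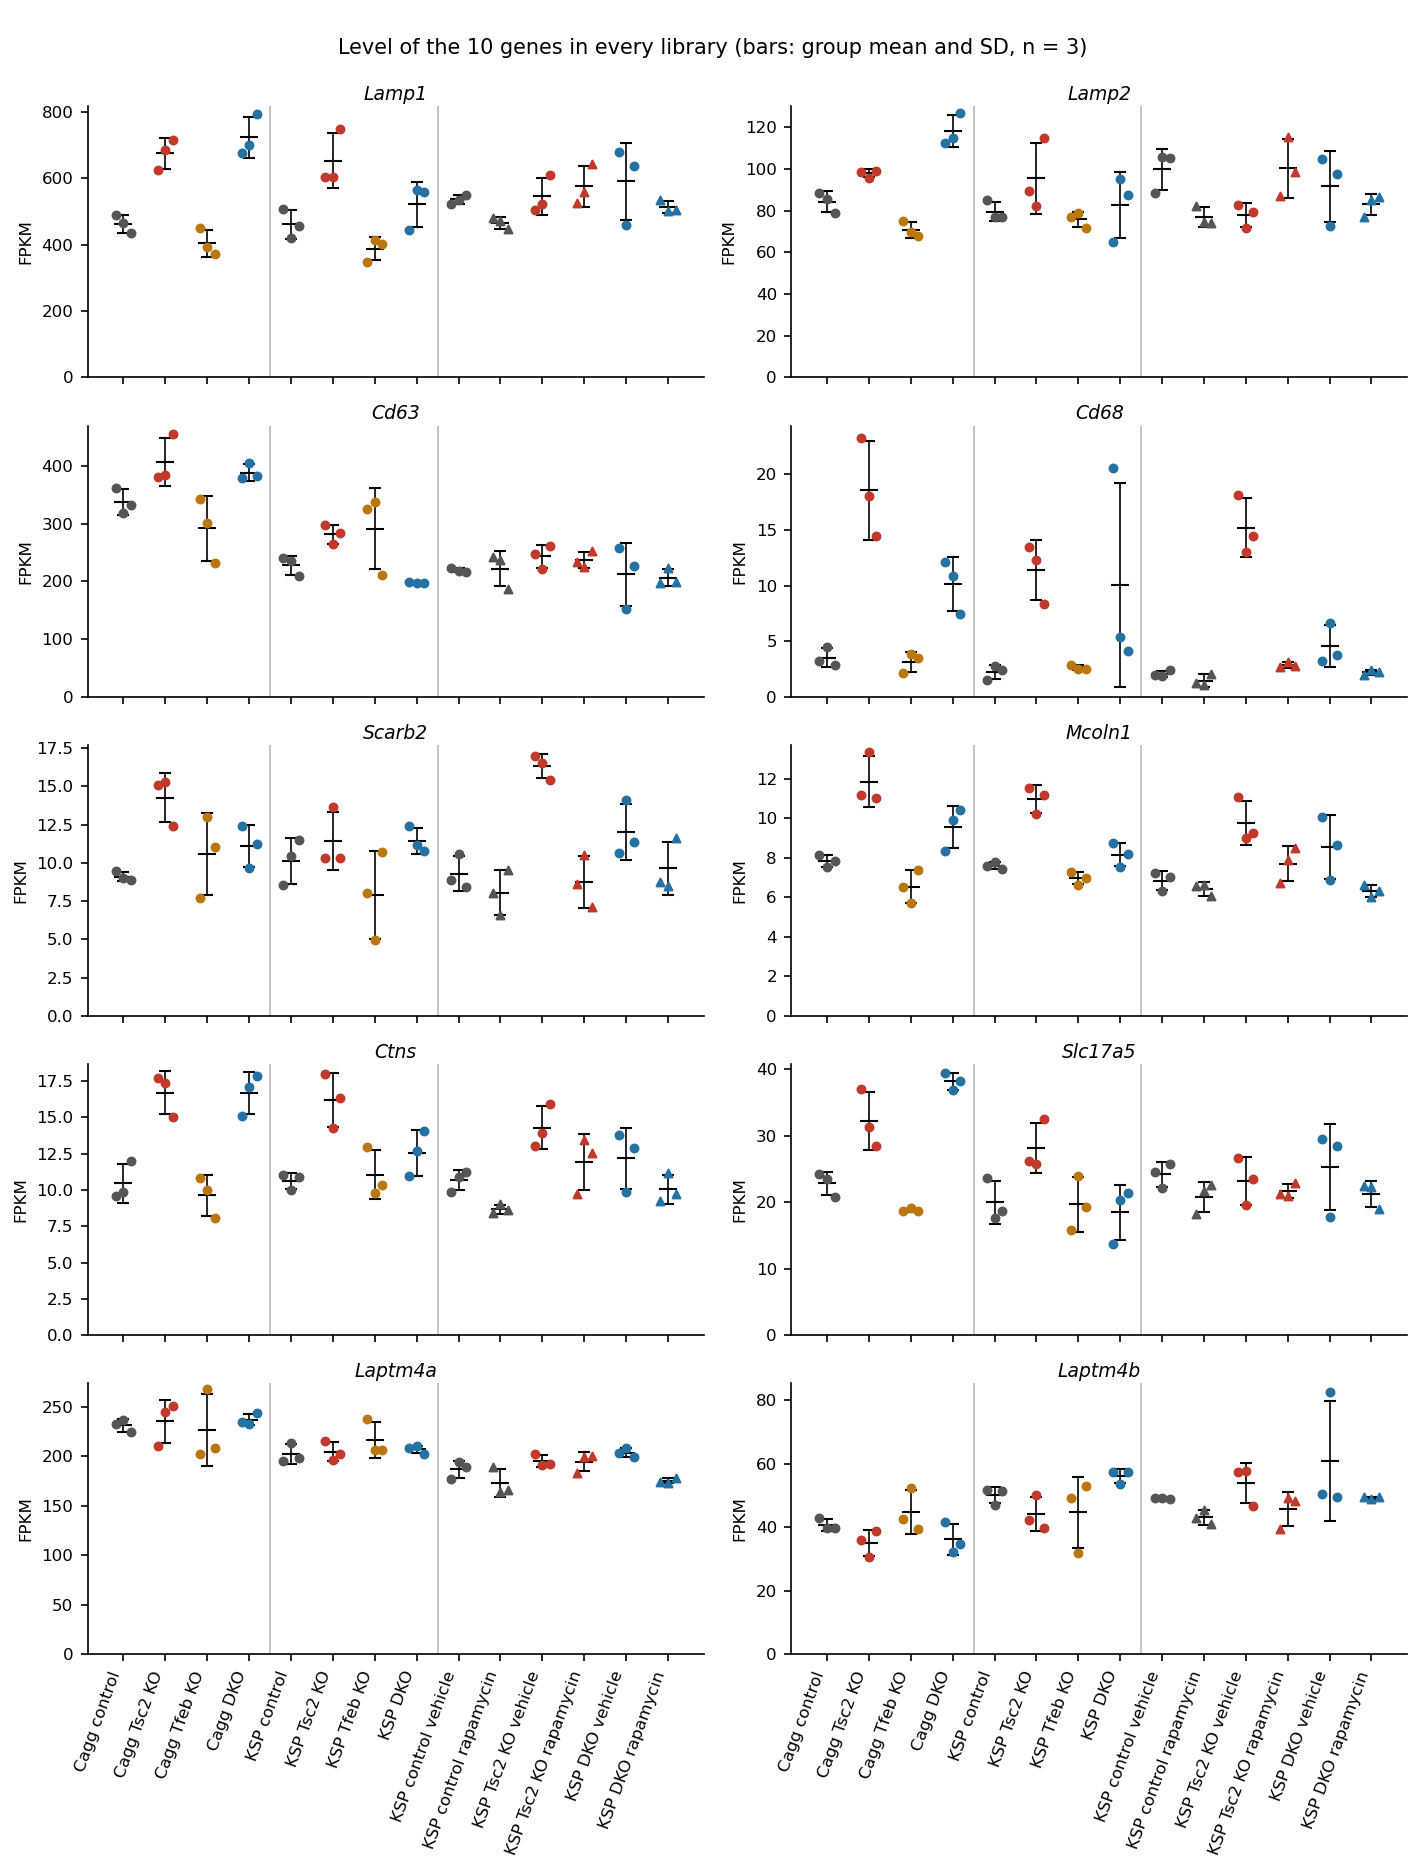
FPKM of each of the 10 genes in all 42 libraries (points, 3 per group; triangles are rapamycin), with the group mean and SD as bars and vertical lines between the 3 cohorts. Cd68 runs from 1.01 to 23.3 FPKM, while Laptm4a stays between 164 and 268 FPKM.

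The comparison of Tsc2 KO with control kidneys asks what loss of Tsc2 does to these genes. In the Cagg cohort 7 of the 10 members rose and none fell. A gene counts as risen or fallen, or called, if its adjusted p is no higher than 0.05 and 1 of the groups compared averages 5 FPKM or more. Of the 8090 genes reaching that level, 23.0% were called higher and 15.5% lower. The median log2 fold change was 0.59 over the members and 0.06 over all genes reaching that level. The 3 control libraries of Cd68 read 3.24, 4.51 and 2.81 FPKM and the 3 Cagg Tsc2 KO libraries 23.3, 18.04 and 14.4 FPKM. Every knockout library was at least 14.4 FPKM and no control reached 5 FPKM, so Cd68 met the minimum level only through the knockout group and lost its call when both groups had to reach it. The rise was 5.51-fold (log2 2.46 ± 0.28 SE, adjusted p = 7.23e-05). The 15 macrophage markers summed to 109 to 141 FPKM in the controls and to 176 to 232 FPKM in Cagg Tsc2 KO, with none of the markers at 0, and their part in the rise of Cd68 was not tested. In RNA of a whole kidney, more or fewer cells of a type and more or less RNA per cell cannot be told apart.

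Among the coat proteins, Lamp1 read 489, 464 and 434 FPKM in Cagg control and 625, 685 and 716 FPKM in Cagg Tsc2 KO. The groups did not overlap, and Lamp1 rose 1.52-fold (log2 0.61 ± 0.11, adjusted p = 0.00193). Lamp2 read 88.6, 85.6 and 78.7 FPKM in the controls and 98.7, 95.8 and 99.2 FPKM in the knockouts, a rise of 1.21-fold (log2 0.28 ± 0.10, adjusted p = 0.0463). That call was lost when any 1 of the 6 libraries was left out (adjusted p from 0.0679 to 0.172) and with Xist as a covariate for sex (adjusted p = 0.273). It was also lost with RLE scaling, with the replicate block, with only the groups compared and with no filter on low counts (adjusted p = 0.0611, 0.0876, 0.105 and 0.268). Cd63 was also higher in all 3 knockout libraries (382, 384 and 455 FPKM against 361, 318 and 333 FPKM), but its log2 difference of 0.33 ± 0.14 did not pass (adjusted p = 0.0864).

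The transporters and the channel rose together. Ctns went from 9.55, 9.83 and 11.99 FPKM to 17.7, 17.4 and 15.02 FPKM (log2 0.74 ± 0.13, adjusted p = 0.00137). Mcoln1 went from 8.15, 7.53 and 7.81 FPKM to 11.2, 13.3 and 11.0 FPKM (log2 0.66 ± 0.12, adjusted p = 0.00172). For both genes the lowest knockout library lay well above the highest control. Slc17a5 went from 24.2, 23.5 and 20.9 FPKM to 37.1, 31.3 and 28.5 FPKM (log2 0.56 ± 0.10, adjusted p = 0.00173). The receptor gene Scarb2 went from 9.47, 9.01 and 8.85 FPKM to 15.1, 15.3 and 12.4 FPKM (log2 0.71 ± 0.16, adjusted p = 0.00678). Calls of these 4 genes were kept with each library left out in turn.

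The sorting genes did not pass. Laptm4a overlapped between the groups (log2 0.09 ± 0.11, adjusted p = 0.613), and Laptm4b lay lower in all 3 knockout libraries (36.0, 30.5 and 38.8 FPKM against 43.1, 39.8 and 39.8 FPKM) with a log2 difference of -0.16 ± 0.13 (adjusted p = 0.383). All 3 controls were male and 2 of the 3 knockouts female, and with Xist as a covariate the members other than Lamp2 kept their calls. Naming the Cagg libraries as the count table does leaves these 6 libraries as they are but exchanges others in the fit, and the SE of Lamp1 becomes 0.27. Those names place a library with Tsc2 at 10.2 FPKM in Cagg DKO and a library with Tsc2 at 5.26 FPKM in Cagg Tfeb KO. Then Cd68, Scarb2 and Mcoln1 kept their calls (adjusted p = 0.016, 0.019 and 0.0194) and Lamp1, Lamp2, Ctns and Slc17a5 lost them (adjusted p from 0.0687 to 0.417). The proximal tubule markers, 8 genes, summed to 1825 to 2054 FPKM in Cagg control and to 430 to 930 FPKM in Cagg Tsc2 KO. Lower without overlap in Cagg Tsc2 KO were also the markers of the distal convoluted tubule (4 genes, 55.2 to 173 FPKM against 332 to 375 FPKM), of podocytes (4 genes, 23.8 to 29.9 FPKM against 69.1 to 83.5 FPKM), of principal cells (5 genes, 230 to 343 FPKM against 506 to 653 FPKM) and of the thick ascending limb (4 genes, 755 to 863 FPKM against 1157 to 1425 FPKM). The part of these lists in the differences was not tested.

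Tfeb loss was added to Tsc2 loss in the DKO kidneys, and the DKO is compared with Tsc2 KO and with control, which share libraries with the comparison above. Against Cagg Tsc2 KO, 1 of the 10 members fell and none rose, where 7.56% of 7906 genes were called lower and 6.91% higher. That member was Cd68, at 12.1, 10.8 and 7.41 FPKM in the 3 Cagg DKO libraries, all below the 3 Cagg Tsc2 KO libraries (log2 -0.90 ± 0.26, adjusted p = 0.0499). The call stands at the threshold. It was lost with any 1 of 5 of the 6 libraries left out (adjusted p from 0.0644 to 0.210), and kept only without Cagg Tsc2 KO 3 (adjusted p = 0.0259). It was also lost under the count table's names (log2 -1.39, adjusted p = 0.134). The replicate block, Xist as a covariate and a fit of only the groups compared ended it too (adjusted p = 0.0552, 0.0610 and 0.0681). Macrophage markers summed to 124 to 187 FPKM in Cagg DKO, overlapping Cagg Tsc2 KO, and the markers of the proximal tubule, thick ascending limb, principal cells and podocytes were higher without overlap in Cagg DKO. Their part was not tested. Mcoln1 read 8.36, 9.92 and 10.4 FPKM in Cagg DKO, all below Cagg Tsc2 KO (log2 -0.33 ± 0.12, adjusted p = 0.101), and Lamp2 read 113, 115 and 127 FPKM, all above it (log2 0.25 ± 0.10, adjusted p = 0.126). Neither passed in edgeR, although DESeq2 called Lamp2 higher (adjusted p = 0.0218). Scarb2 overlapped, at 12.4, 9.68 and 11.2 FPKM in Cagg DKO (log2 -0.38 ± 0.16, adjusted p = 0.157). For Lamp1, Cd63, Ctns, Slc17a5, Laptm4a and Laptm4b the libraries overlapped, with log2 differences between -0.09 and 0.22. Those of Lamp1, Slc17a5 and Laptm4b changed sign under the count table's names.

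Against Cagg control, 5 members stayed higher in Cagg DKO and none was lower, where 10.2% of 7950 genes were called higher and 4.73% lower. Slc17a5 read 39.5, 36.9 and 38.3 FPKM (log2 0.78 ± 0.10, adjusted p = 0.000535). Lamp1 read 677, 699 and 795 FPKM (log2 0.68 ± 0.11, adjusted p = 0.00267). Cd68 (log2 1.56 ± 0.28, adjusted p = 0.00409), Lamp2 (log2 0.53 ± 0.10, adjusted p = 0.00471) and Ctns (log2 0.71 ± 0.13, adjusted p = 0.00475) were the others. Every call was kept with each library left out, but none was kept under the count table's names (adjusted p from 0.577 to 0.667), where 1 of the 3 DKO libraries is another kidney. That kidney had Tsc2 at 10.2 FPKM, within the 9.81 to 10.6 FPKM of Cagg control. Mcoln1 and Scarb2 lay above control in all 3 DKO libraries without passing, each with a log2 difference of 0.33 (adjusted p = 0.116 and 0.252). In Cagg DKO the proximal tubule markers summed to 1197 to 1480 FPKM, the distal convoluted tubule markers to 114 to 173 FPKM (332 to 375 FPKM in Cagg control), the 6 intercalated cell markers to 144 to 176 FPKM (241 to 242 FPKM), the thick ascending limb markers to 1042 to 1155 FPKM and the podocyte markers to 49.2 to 52.2 FPKM. These 5 lists lay below Cagg control in every library, macrophage markers overlapped, and the part of these lists was not tested.

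Loss of Tfeb alone is compared with control in the same cohorts. In the Cagg cohort edgeR called 0 of 10 in either direction, where 0.0128% of 7803 genes were called higher and 0.0128% lower, and DESeq2 called 0. Here and below, counts by unadjusted p or by DESeq2 stand without the share of all genes, which is given for edgeR calls only. Without adjustment 2 members had p below 0.05, both lower in Cagg Tfeb KO. Lamp2 read 75.1, 69.9 and 67.6 FPKM (log2 -0.22 ± 0.10, adjusted p = 0.589), and Slc17a5 read 18.7, 19.1 and 18.7 FPKM (log2 -0.25 ± 0.10, adjusted p = 0.555), all below control. Under the count table's names both differences changed sign, to 0.053 for Lamp2 and 0.20 for Slc17a5, and so did those of Lamp1, Cd63, Cd68, Ctns and Laptm4a. Mcoln1 also lay below control in all 3 libraries (6.52, 5.71 and 7.36 FPKM, log2 -0.23 ± 0.12, adjusted p = 0.669). Proximal tubule markers summed to 1270 to 1790 FPKM in Cagg Tfeb KO and to 1825 to 2054 FPKM in Cagg control. T cell and B cell markers were higher without overlap in Cagg Tfeb KO, and the part of these lists was not tested. All Cagg Tfeb KO libraries are female and all controls male, so sex and genotype cannot be told apart here. The effect of Tfeb loss with Tsc2 lost was tested against its effect with Tsc2 present as an interaction. It called none of the members, where 2.13% of 8341 genes were called, with 3 members at unadjusted p below 0.05 and 1 called by DESeq2. That was Lamp2, at 0.47 ± 0.14 (adjusted p = 0.111 in edgeR and 0.00243 in DESeq2). Slc17a5 was at 0.47 ± 0.15 (adjusted p = 0.135). With the count table's names these became -0.0016 for Lamp2 and -0.27 for Slc17a5, and the differences of Lamp1, Cd63 and Ctns also changed sign. Scarb2 was at -0.62 ± 0.23 (adjusted p = 0.207) and was called without Cagg Tfeb KO 1 (-0.80, adjusted p = 0.0377), a library whose adrenal markers summed to 271 FPKM.

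**Figure D3:**
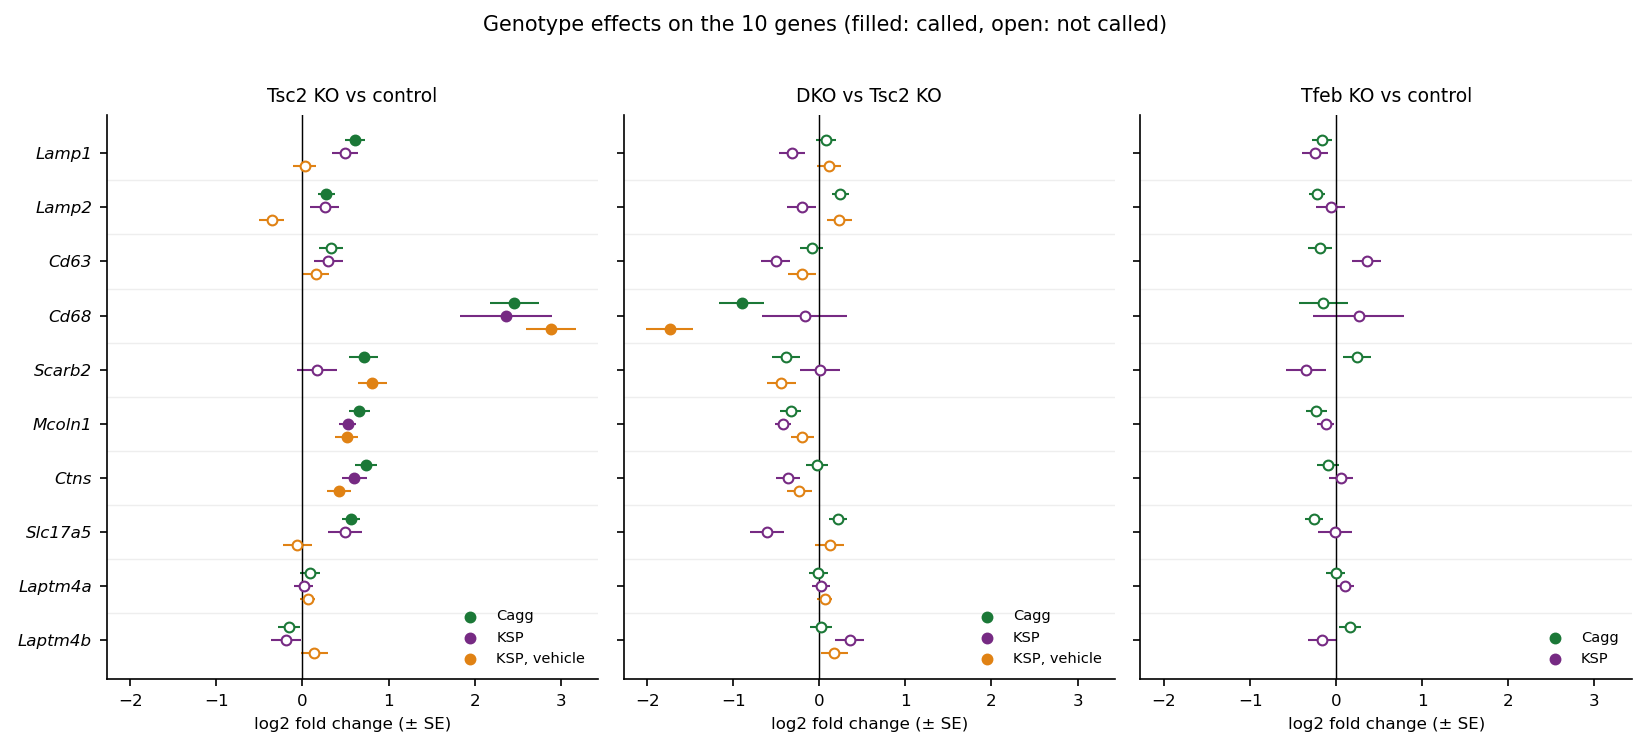
Log2 fold change (± SE) of the 10 genes for Tsc2 KO vs control, DKO vs Tsc2 KO and Tfeb KO vs control, with cohorts in colour and filled points for called genes. Cd68 lies furthest from 0 in all 3 Tsc2 KO comparisons (2.36 to 2.88), and Laptm4a lies between -0.01 and 0.10 throughout.

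In the KSP cohort the same comparison called fewer members. KSP Tsc2 KO raised 3 of the 10 and lowered none, where 9.42% of 7736 genes were called higher and 8.74% lower. The members' median log2 fold change was 0.40, against -0.01 over all genes reaching the minimum level. Cd68 went from 1.48, 2.72 and 2.39 FPKM in KSP control to 13.5, 12.3 and 8.31 FPKM in KSP Tsc2 KO, a rise of 5.14-fold (log2 2.36 ± 0.53, adjusted p = 0.0129). Here too, and in every other comparison of Tsc2 KO or DKO with control or of rapamycin with vehicle that called Cd68, the gene met the minimum level through 1 group alone, and its call was lost when every group had to reach it. Without KSP control 1 its adjusted p was 0.0566. Macrophage markers summed to 66.3 to 97.01 FPKM in KSP control and to 123 to 211 FPKM in KSP Tsc2 KO. The proximal tubule markers summed to 1643 to 1906 FPKM in KSP control and to 719 to 1384 FPKM in KSP Tsc2 KO, and the intercalated cell markers to 159 to 194 FPKM and to 267 to 522 FPKM. The thick ascending limb markers were also higher in KSP Tsc2 KO (1961 to 2135 FPKM against 1412 to 1595 FPKM). Lower without overlap were those of the distal convoluted tubule (60.9 to 106 FPKM against 205 to 218 FPKM), podocytes (16.1 to 21.0 FPKM against 38.4 to 54.0 FPKM), principal cells (227 to 246 FPKM against 366 to 745 FPKM) and endothelium (5 genes, 25.999 to 38.6 FPKM against 49.5 to 69.3 FPKM). The part of these lists in the differences was not tested. Mcoln1 went from 7.59, 7.78 and 7.43 FPKM to 11.5, 10.2 and 11.2 FPKM (log2 0.53 ± 0.10, adjusted p = 0.00464), with replicates close together in both groups. Ctns went from 11.0, 10.0002 and 10.9 FPKM to 17.96, 14.3 and 16.4 FPKM (log2 0.60 ± 0.14, adjusted p = 0.0152), and its adjusted p was 0.0622 without KSP control 2 and 0.0718 without KSP Tsc2 KO 1.

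Lamp1 stood just outside the threshold. It read 507, 421 and 456 FPKM in KSP control and 604, 606 and 749 FPKM in KSP Tsc2 KO, without overlap (log2 0.50 ± 0.15, adjusted p = 0.0508), and it was called by DESeq2 (adjusted p = 0.00537) and by edgeR with only the groups compared (adjusted p = 0.0488). Slc17a5 (log2 0.49 ± 0.20, adjusted p = 0.127) and Cd63 (log2 0.30 ± 0.17, adjusted p = 0.276) were also higher in every KSP Tsc2 KO library and did not pass. Lamp2 overlapped and was not called, at 89.3, 82.3 and 115 FPKM against 84.9, 76.8 and 76.7 FPKM in KSP control (log2 0.26). Scarb2, which rose in the Cagg cohort, overlapped here (8.53, 10.4 and 11.5 FPKM against 10.3, 13.6 and 10.3 FPKM, log2 0.17 ± 0.23, adjusted p = 0.701). The difference between the cohorts was not tested.

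In KSP DKO against KSP Tsc2 KO edgeR called 0 of the 10 members, where 0.117% of 7700 genes were called higher and 0.169% lower. Without adjustment 4 members had p below 0.05, all lower, and DESeq2 called 1, Mcoln1. Mcoln1 read 8.74, 7.54 and 8.20 FPKM, each below every KSP Tsc2 KO library (log2 -0.42 ± 0.10, adjusted p = 0.105 in edgeR and 0.00225 in DESeq2). Slc17a5 read 13.8, 20.3 and 21.4 FPKM (log2 -0.60 ± 0.20, adjusted p = 0.223), and Cd63 read 199, 197 and 197 FPKM (log2 -0.51 ± 0.17, adjusted p = 0.229). The log2 difference of Ctns was -0.36 ± 0.14 and that of Lamp1 -0.32 ± 0.15, and Laptm4b was higher in all 3 KSP DKO libraries (log2 0.35 ± 0.17, adjusted p = 0.427). Cd68 split the group. It read 20.6 FPKM in KSP DKO 1, the library high in macrophage markers, and 5.41 and 4.14 FPKM in the others. The log2 difference was -0.17 ± 0.49 (adjusted p = 0.936) and became -1.25 (adjusted p = 0.150) without KSP DKO 1. Markers of the distal convoluted tubule, podocytes, principal cells and B cells were higher without overlap in KSP DKO than in KSP Tsc2 KO, and their part was not tested.

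Against KSP control, KSP DKO raised 1 member and lowered none, where 2.33% of 7689 genes were called higher and 1.56% lower. This was Cd68 (log2 2.20 ± 0.53, adjusted p = 0.0487). Without KSP DKO 1 the log2 difference was 1.12 (adjusted p = 0.105), and leaving out any 1 of the 3 controls also ended the call (adjusted p from 0.107 to 0.198). So did the replicate block (log2 1.93, adjusted p = 0.0976) and a fit of only the groups compared (adjusted p = 0.140). Macrophage markers overlapped between KSP DKO and KSP control. Markers of the proximal tubule, distal convoluted tubule and podocytes were lower, and those of intercalated cells and the thick ascending limb higher, in every KSP DKO library, and their part was not tested. The other members were within 0.25 of 0. KSP Tfeb KO against KSP control gave 0 of 10 members and 0% of 7476 genes in either direction in edgeR, 0 members in DESeq2 and 0 at unadjusted p below 0.05. Lamp1 (349, 413 and 402 FPKM) and Mcoln1 (7.26, 6.65 and 6.995 FPKM) lay below all KSP controls, with log2 differences of -0.25 ± 0.15 and -0.12 ± 0.10. Proximal tubule markers summed to 1438 to 1541 FPKM in KSP Tfeb KO and to 1643 to 1906 FPKM in KSP control. Adipose markers were also lower without overlap, and the part of both lists was not tested. The interaction called none of the members and 0% of 8125 genes. It had 2 members at unadjusted p below 0.05, and DESeq2 called 1, Cd63 (log2 -0.87 ± 0.24, adjusted p = 0.350 in edgeR and 0.0401 in DESeq2).

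In the second KSP cohort, 4 of the 10 members rose and none fell in vehicle-treated Tsc2 KO kidneys, where 23.8% of 8098 genes were called higher and 24.6% lower. The members' median log2 fold change was 0.14. Cd68 read 1.92, 1.90 and 2.35 FPKM in KSP control vehicle and 18.1, 13.0 and 14.4 FPKM in KSP Tsc2 KO vehicle, a rise of 7.38-fold (log2 2.88 ± 0.29, adjusted p = 1.76e-06). Macrophage markers summed to 53.0 to 69.5 FPKM and to 129 to 232 FPKM, and their part was not tested. Scarb2 went from 8.87, 10.6 and 8.40 FPKM to 17.0, 16.5 and 15.4 FPKM (log2 0.81 ± 0.17, adjusted p = 0.00136). Mcoln1 went from 7.22, 6.32 and 7.01 FPKM to 11.1, 9.01 and 9.26 FPKM (log2 0.51 ± 0.13, adjusted p = 0.00586). Ctns went from 9.89, 10.9 and 11.2 FPKM to 13.0, 13.9 and 15.9 FPKM (log2 0.42 ± 0.14, adjusted p = 0.0263), a call lost without KSP Tsc2 KO vehicle 3 (adjusted p = 0.0960) or any 1 of the 3 controls (adjusted p from 0.0501 to 0.0951) and with only the groups compared (adjusted p = 0.0516).

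The coat proteins were not called in this cohort. Lamp1 read 524, 536 and 551 FPKM in KSP control vehicle and 505, 522 and 610 FPKM in KSP Tsc2 KO vehicle, which overlapped (log2 0.02 ± 0.14, adjusted p = 0.909). Lamp2 was lower in all 3 knockout libraries, 82.6, 71.6 and 79.3 FPKM against 88.5, 106 and 105 FPKM (log2 -0.36 ± 0.14, adjusted p = 0.0597). DESeq2 called it lower (adjusted p = 0.0308), as did edgeR without KSP control vehicle 1 (adjusted p = 0.0416). In the untreated KSP cohort the log2 difference of Lamp2 was 0.26, not called, and the difference between the cohorts was not tested. Slc17a5 overlapped (log2 -0.06 ± 0.16). Proximal tubule markers summed to 1596 to 1889 FPKM in KSP control vehicle and to 386 to 623 FPKM in KSP Tsc2 KO vehicle. Distal convoluted tubule markers summed to 246 to 304 FPKM and to 53.2 to 68.2 FPKM, podocyte markers to 37.8 to 51.0 FPKM and to 9.06 to 13.1 FPKM, and intercalated cell markers to 136 to 188 FPKM and to 533 to 690 FPKM, in the same order. Principal cell and endothelial markers were also lower without overlap. Their part was not tested.

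Cd68 fell in KSP DKO vehicle against KSP Tsc2 KO vehicle, the 1 member of 10 that was called, where 12.6% of 7950 genes were called lower and 16.9% higher. It read 3.22, 6.67 and 3.78 FPKM in KSP DKO vehicle (log2 -1.74 ± 0.28, adjusted p = 0.000328), and no library of the groups overlapped. Only KSP Tsc2 KO vehicle averaged 5 FPKM or more, and the call was lost when both groups had to. Macrophage markers summed to 76.8 to 104 FPKM in KSP DKO vehicle. Intercalated cell markers were also lower than in KSP Tsc2 KO vehicle, and those of the proximal tubule, distal convoluted tubule, thick ascending limb, principal cells, podocytes, adipose tissue and B cells higher, all without overlap, and their part was not tested. The highest of these, KSP DKO vehicle 2, is the library highest in adrenal markers, and without it the log2 difference was -2.12. Scarb2 read 10.6, 14.1 and 11.4 FPKM, also below all 3 KSP Tsc2 KO vehicle libraries (log2 -0.44 ± 0.17, adjusted p = 0.0736), and was called without KSP DKO vehicle 2 (adjusted p = 0.0384). Lamp2 read 104.9, 72.4 and 97.4 FPKM (log2 0.23 ± 0.14, adjusted p = 0.264) and Slc17a5 29.5, 17.8 and 28.5 FPKM (log2 0.12 ± 0.16, adjusted p = 0.647). In both genes KSP DKO vehicle 2 was the lowest of its group, and with that library and KSP Tsc2 KO vehicle 1, both high in adrenal markers, left out together, both were called higher (log2 0.44 and 0.45, adjusted p = 0.048 and 0.0331). Laptm4b was 82.8 FPKM in KSP DKO vehicle 2 against 50.4 and 49.5 FPKM in its group. Against KSP control vehicle edgeR called 0 members, where 5.37% of 7735 genes were called higher and 3.05% lower, and DESeq2 called 0. Without adjustment 3 members were higher at p below 0.05. Scarb2 was at log2 0.37 ± 0.17 and Mcoln1 at 0.32 ± 0.13. Cd68 had an adjusted p of 0.0256 there (log2 1.15 ± 0.28), but its mean stayed below 5 FPKM in both groups. Without KSP DKO vehicle 1 it passed the minimum and was called (log2 1.33, adjusted p = 0.0229). With each library left out in turn, its log2 difference ran from 0.78 to 1.33 and its adjusted p from 0.0229 to 0.121. Macrophage markers summed to 53.0 to 69.5 FPKM in KSP control vehicle, below every KSP DKO vehicle library. Markers of intercalated cells, the thick ascending limb and principal cells were also higher in KSP DKO vehicle without overlap. The part of these lists was not tested.

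Rapamycin asks whether blocking mTORC1 moves these genes in each genotype. In Tsc2 KO kidneys 2 of the 10 members fell and none rose, where 17.3% of 7997 genes were called lower and 21.2% higher. Cd68 read 2.65, 3.14 and 2.74 FPKM in KSP Tsc2 KO rapamycin, above the 2.35 FPKM of the highest vehicle control and below the 13.0 FPKM of the lowest KSP Tsc2 KO vehicle library (log2 -2.41 ± 0.29, adjusted p = 1.54e-05). Macrophage markers summed to 60.4 to 110.5 FPKM with rapamycin, and proximal tubule markers to 1461 to 1916 FPKM with it against 386 to 623 FPKM with vehicle. Markers of the distal convoluted tubule, podocytes and thick ascending limb were also higher with rapamycin without overlap, and their part was not tested. Scarb2 read 8.64, 10.5 and 7.11 FPKM, all below the vehicle group (log2 -0.90 ± 0.17, adjusted p = 0.000938). Both calls held with each library left out. Mcoln1 was lower in all 3 libraries, at 6.74, 7.90 and 8.49 FPKM (log2 -0.34 ± 0.13, adjusted p = 0.0638). Lamp2 was higher in all 3, at 86.9, 115 and 98.4 FPKM (log2 0.37 ± 0.14, adjusted p = 0.0645), and DESeq2 called both (adjusted p = 0.0471 and 0.0344). Without KSP Tsc2 KO rapamycin 1 edgeR called Lamp2 as well (adjusted p = 0.0362). For the other members the libraries of both groups overlapped.

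In DKO kidneys edgeR called 0 members after rapamycin, where 4.70% of 7723 genes were called lower and 2.73% higher. All 10 log2 differences were below 0, with a median of -0.26 against -0.02 over all genes reaching the minimum level. The share of all genes below 0 is not given. Without adjustment 3 members had p below 0.05, and DESeq2 called 2 lower, Mcoln1 and Laptm4a. These counts have no share of all genes beside them. Mcoln1 went from 10.1, 6.89 and 8.65 FPKM to 6.63, 6.03 and 6.34 FPKM (log2 -0.43 ± 0.13, adjusted p = 0.0677 in edgeR and 0.0298 in DESeq2), and edgeR called it without KSP DKO vehicle 2 (adjusted p = 0.0165). Laptm4a went from 203, 209 and 200 FPKM to 175, 173 and 178 FPKM (log2 -0.22 ± 0.09, adjusted p = 0.157 in edgeR). Cd68 went to 1.98, 2.39 and 2.20 FPKM (log2 -1.05 ± 0.28, adjusted p = 0.0394), below the minimum level in both groups. It was called without KSP DKO vehicle 1 (log2 -1.24, adjusted p = 0.0310). With each library left out in turn, its log2 difference ran from -1.24 to -0.68 and its adjusted p from 0.0310 to 0.166. Macrophage markers went from 76.8 to 104 FPKM with vehicle to 43.4 to 64.9 FPKM with rapamycin, and intercalated cell markers from 246 to 378 FPKM to 185 to 210 FPKM, and their part in these differences was not tested.

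In control kidneys edgeR and DESeq2 called 0 members after rapamycin, where 0.0664% of 7535 genes were called lower and 0% higher, and 1 member had an unadjusted p below 0.05. This was Lamp2, which went from 88.5, 106 and 105 FPKM to 82.3, 74.4 and 74.1 FPKM (log2 -0.37 ± 0.14, adjusted p = 0.389). Lamp1, Ctns and Laptm4b also lay below vehicle in all 3 libraries, with log2 differences of -0.20, -0.30 and -0.18. Lamp2 was thus lower with rapamycin in every control library and higher with it in every Tsc2 KO library. In the controls principal cell markers summed to 267 to 322 FPKM with vehicle and to 533 to 773 FPKM with rapamycin. Distal convoluted tubule markers summed to 246 to 304 FPKM and to 183 to 241 FPKM, in the same order. The part of both lists was not tested.

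The differences between these rapamycin effects were tested directly. In Tsc2 KO minus control kidneys 2 members were called, where 29.8% of 8253 genes were called. The difference for Lamp2 was 0.74 ± 0.20 on the log2 scale (adjusted p = 0.0170) and that call held with each of the 12 libraries left out. For Cd68 the difference was -1.91 ± 0.41 (adjusted p = 0.00375). Cd68 reached 5 FPKM only in KSP Tsc2 KO vehicle (mean 15.2 FPKM, against 1.44 to 2.84 FPKM in the other 3 groups), and the call was lost when that level was required in every group. Scarb2 had a difference of -0.69 ± 0.24 (adjusted p = 0.0522) and was called without KSP control vehicle 2, KSP control rapamycin 2 or KSP Tsc2 KO rapamycin 2 (adjusted p = 0.0403, 0.0307 and 0.0269) and by DESeq2 (adjusted p = 0.0336). In Tsc2 KO minus DKO kidneys 1 member was called, where 11.0% of 8254 genes were called. This was Cd68, at -1.36 ± 0.39 (adjusted p = 0.0473), and the call was lost with 11 of the 12 libraries left out in turn (adjusted p from 0.0616 to 0.119). Only without KSP DKO vehicle 2 was it kept (adjusted p = 0.00638), and Lamp2 was then called too (log2 0.64, adjusted p = 0.0324). Both differences share the Tsc2 KO libraries.

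**Figure D4:**
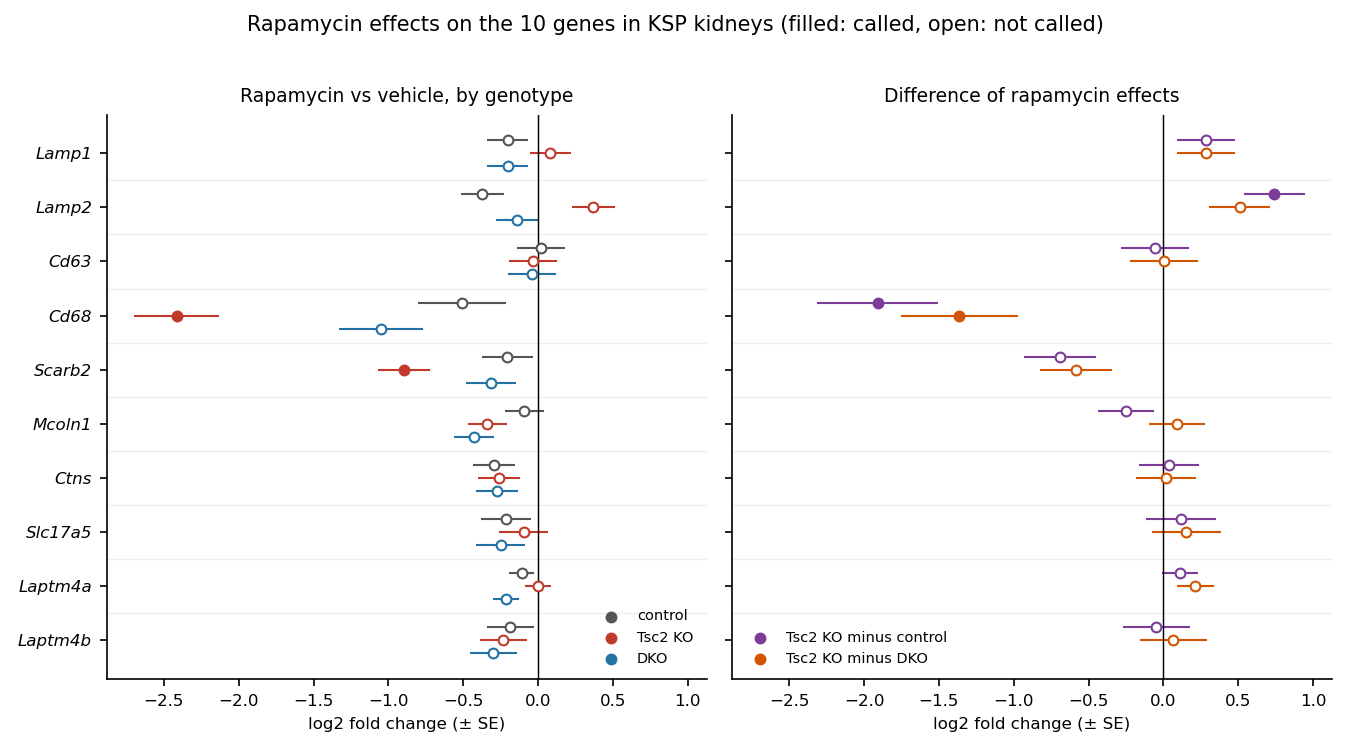
Log2 fold change (± SE) of the 10 genes for rapamycin vs vehicle in control, Tsc2 KO and DKO kidneys (left) and the differences between those effects (right), with filled points for called genes. Cd68 and Scarb2 fall in Tsc2 KO kidneys (-2.41 and -0.90), and Lamp2 lies on opposite sides of 0 in Tsc2 KO (0.37) and control (-0.37).

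**Figure D5:**
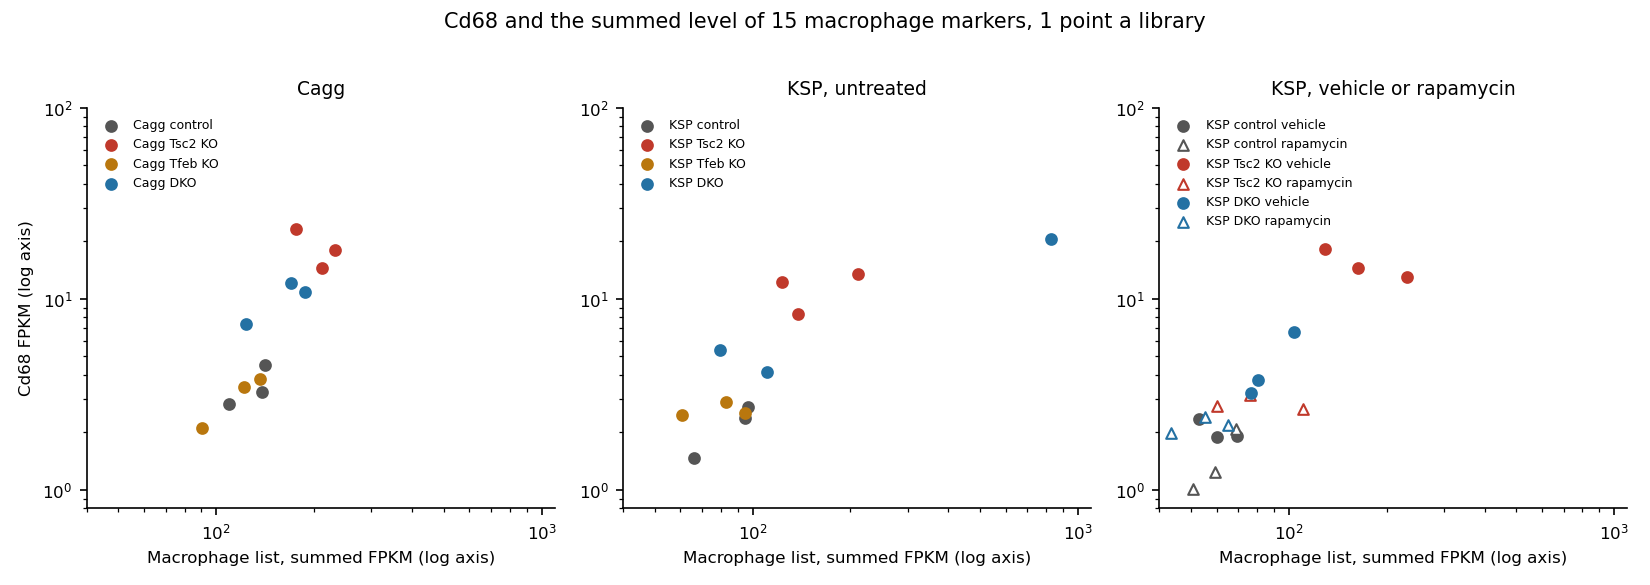
FPKM of Cd68 against the summed FPKM of 15 macrophage markers in each library, by cohort, on log axes, with groups in colour and open triangles for rapamycin. Library KSP DKO 1 lies apart at 828.5 FPKM of markers and 20.6 FPKM of Cd68, and the Tsc2 KO libraries without rapamycin lie at 8.31 to 23.3 FPKM of Cd68.

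The other genes of the lysosomal membrane were taken from a list of 46 transporters, channels and membrane proteins, all found in the tables. The list was chosen with earlier results of these data known, so its shares beside all genes are a description and not independent evidence. In Cagg Tsc2 KO against control 18 of the 33 that reached the minimum level were called higher (54.5%, against 23.0% of all genes) and 1 lower. The counts were 9 higher and 1 lower of 31 in KSP Tsc2 KO (29.0% higher, against 9.42% of all genes), and 16 higher and 5 lower of 32 in KSP Tsc2 KO vehicle (50% higher, against 23.8% of all genes). Their median log2 fold changes were 0.40, 0.32 and 0.30. In all 3 cohorts 9 of the list were called. Clcn7, the lysosomal chloride-proton exchanger, rose 2.07-fold, 2.01-fold and 2.30-fold in the Cagg, KSP and vehicle cohorts. Its subunit Ostm1 rose by log2 1.06 ± 0.10, 0.97 ± 0.12 and 1.16 ± 0.12. Also higher in all 3 were Cln3, the gene of juvenile Batten disease, Mfsd12, a cysteine transporter of lysosomes and melanosomes, Glmp, the phosphatases Pip4p1 and Pip4p2, and Pqlc2, a cationic amino acid exporter. Dram2 fell in all 3 (log2 -0.40 ± 0.09, -0.47 ± 0.14 and -1.01 ± 0.12). Among the largest changes of a cohort were also Slc15a4, a histidine and peptide transporter (log2 0.88 ± 0.12 in Cagg), and Abcd4, of lysosomal cobalamin transport (log2 1.53 ± 0.28 in KSP). In DKO against Tsc2 KO, 4 of 32 were called lower and 1 higher in the Cagg cohort (7.56% and 6.91% of all genes), and 0 of 32 in the KSP cohort, where 0.169% and 0.117% of all genes were called. In KSP DKO vehicle against KSP Tsc2 KO vehicle 5 were called lower and 2 higher of 32 (15.6% and 6.25%, against 12.6% and 16.9% of all genes). After rapamycin in Tsc2 KO 12 were called lower and 6 higher of 32 (37.5% and 18.8%, against 17.3% and 21.2% of all genes). Clcn7 and Ostm1 were among those that fell in both, by -0.47 ± 0.10 and -0.71 ± 0.12 in the DKO and by -0.77 ± 0.10 and -0.99 ± 0.12 with rapamycin.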

How the data were processed

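Poly-A, non-directional libraries of 42 whole kidneys were analysed from tables of counts (reads per gene, whole numbers, not normalized) and of FPKM, both deposited by the authors. FPKM divide each count by gene length and by 1 size per library. Submitters' processing notes name STAR 2.6.1d, HISAT2 2.0.5, featureCounts 1.5.0-p3, DESeq2 1.20.0 and mm10 without their roles. No column was left unmapped. Count and FPKM columns of the Cagg cohort were matched on the ratio between FPKM and length-scaled counts, which is constant for a matching pair (coefficient of variation at most 1.99e-10 for the matched column and at least 0.197 for any other), and group names were those of the FPKM table.

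Counts were tested in R 4.3.3 with edgeR 4.0.16 (filterByExpr, TMM, glmQLFit and glmQLFTest, all groups of a cohort in 1 fit), with Benjamini-Hochberg adjustment over all genes tested. A gene was called if its adjusted p was no higher than 0.05 and 1 of the groups compared averaged 5 FPKM or more, and percentages of genes called refer to the genes tested that reach this minimum. Counts of members by unadjusted p or by DESeq2 have no such percentage beside them. Differences of effects were interaction terms. SE is the log2 fold change divided by the root of the F statistic. DESeq2 1.42.0 was an alternative. All 10 members were tested in all 18 comparisons. The scripts were tested on simulated counts. From the list of 46 other lysosomal membrane genes, those called in Tsc2 KO against control in all 3 cohorts and the 3 largest changes per cohort are named. The members and lists were chosen with earlier results of these data known.

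Alternatives were RLE scaling, no filter on low counts, no FPKM minimum, the minimum in every group, only the groups compared, the replicate block, each library left out, and, in the Cagg cohort, the count table's names and Xist as a covariate. Replicates of a group differed by 15.2 to 80.3 times the counting noise per gene, so none was counted as a duplicate. The labels number the kidneys of a group but do not say how the mice were related, so p-values measure the spread between these kidneys. The counts gave at least 26 reads for a member in any library (Cd68), and counting error limits Cd68 most.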

Additional observations from a re-analysis of the deposited data

Results flagged for a closer look

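The effect of rapamycin differed between genotypes for 2 of the genes, by the interaction term in edgeR over all groups of the drug cohort. Among all genes reaching the minimum level, 29.8% of 8253 were called in the difference with control and 11.0% of 8254 in that with DKO, so 2 and 1 of the 10 members are not above the background. For Lamp2 the effect in Tsc2 KO minus that in control was 0.74 on the log2 scale (adjusted p = 0.0170), with every Tsc2 KO library higher and every control library lower under rapamycin. In control kidneys principal cell markers were higher and distal convoluted tubule markers lower with rapamycin, without overlap. In Tsc2 KO kidneys markers of the proximal tubule, distal convoluted tubule, podocytes and thick ascending limb were higher with it. The part of these lists was not tested. For Cd68 the effect in Tsc2 KO minus that in control was -1.91 (adjusted p = 0.00375), and the effect in Tsc2 KO minus that in DKO was -1.36 (adjusted p = 0.0473). Both Cd68 calls were lost with 5 FPKM required in every group, since only KSP Tsc2 KO vehicle averaged more than that. The second was also lost with 11 of the 12 libraries left out in turn (adjusted p from 0.0616 to 0.119), with the replicate block (adjusted p = 0.0621) and with no filter on low counts (adjusted p = 0.0571). Summed macrophage markers moved with Cd68, from 129 to 232 FPKM in KSP Tsc2 KO vehicle to 60.4 to 110.5 FPKM with rapamycin, and their part was not tested.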

How the results depend on the processing

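No fit reversed a value that was called. Over the 59 pairs of gene and comparison with an unadjusted p below 0.05 as reported, 892 alternative fits gave 792 with the same direction and side of the threshold, 65 that lost the call, 31 that gained it and 4 with the opposite direction. Outside these pairs 3 calls were gained, all without the pair of libraries described below for the drug cohort. The 4 reversals came under the count table's names of the Cagg libraries, which place a library with Tsc2 at 10.2 FPKM in Cagg DKO. There Lamp2 in Tfeb KO against control was 0.053 (-0.22 as reported) and Slc17a5 0.20 (-0.25 as reported), and in the Tfeb interaction Lamp2 was -0.0016 and Slc17a5 -0.27 (0.47 for both as reported). The same names left 3 of the 7 members higher in Tsc2 KO, 0 of 5 in DKO against control and 0 of 1 lower in DKO against Tsc2 KO. The last count was also 0 with the replicate block (Cd68 -0.91, adjusted p = 0.0552), with only the groups compared and with Xist as a covariate, and 0 to 1 with each library left out. DESeq2 called 1 member higher there and 1 in the Cagg interaction, which had 0 to 1 with each library left out.

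In KSP the 3 higher in Tsc2 KO were 4 with DESeq2 and with only the groups compared, and 2 with 5 FPKM in every group. DESeq2 called 1 lower in DKO against Tsc2 KO and 1 in the interaction. The 1 member higher in DKO against control became 0 with 5 FPKM required in every group, with the replicate block and with only the groups compared, and 0 to 1 with each library left out. In the drug cohort an added alternative, chosen after seeing the data, left out KSP Tsc2 KO vehicle 1 and KSP DKO vehicle 2 together, leaving 2 libraries in each of those groups. The 4 members higher in Tsc2 KO vehicle against control vehicle became 3 with 5 FPKM in every group or only the groups compared. Members lower in Tsc2 KO vehicle against control vehicle went from 0 to 1 with DESeq2 and without that pair, and 0 to 1 with each library left out. In DKO vehicle against Tsc2 KO vehicle 2, Lamp2 and Slc17a5, became higher without the pair, and the 1 lower became 0 with 5 FPKM in every group, 2 with only the groups compared, and 1 to 2 with each library left out. In DKO vehicle against control vehicle the 0 higher became 1 without the FPKM minimum or the pair, and 0 to 1 with each library left out.

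Under rapamycin in Tsc2 KO the 0 higher became 1 with DESeq2 or without the pair, and 0 to 1 with each library left out, and the 2 lower became 1 with 5 FPKM in every group and 3 with DESeq2. In DKO the 0 lower became 1 without the FPKM minimum, 2 with DESeq2 and 2 (Mcoln1 and Slc17a5) without the pair, and 0 to 1 with each library left out. The 2 called in the interaction with control became 1 with 5 FPKM in every group, 3 with DESeq2, and 2 to 3 with each library left out. The 1 called in the interaction with DKO became 0 with that minimum, without a filter on low counts and with the replicate block, 2 without the pair, and 0 to 2 with each library left out. The causes were not tested. Replicate numbers gave no clear pairing of the samples, but this check cannot show how the mice were related. Median correlations of deviations were 0.0088, -0.04 and -0.005 for same-number pairs in the Cagg, KSP and drug cohorts. They were 0.0089, -0.0025 and 0.0199 for different-number pairs. Libraries correlated best with their own number in 3 of 12, 6 of 12 and 4 of 18 cases. Same-number correlations of deviations passed 0.1 in 3 of 18, 4 of 18 and 9 of 45 pairs in the Cagg, KSP and drug cohorts. The Xist covariate was not run where all libraries are female. Groups of 3 kidneys and as few as 26 counts of Cd68 limit what could be seen.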
